A study of Danio rerio with 36 samples.

Results

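The genes described here are the zebrafish proteasome genes, taken as every symbol that starts with psm, one letter from a to g and a number, in the RNA count files of a study of caudal fin regeneration. The rule found 53 of the 14781 listed gene symbols. They were 9 alpha subunits of the core (psma), 7 constitutive beta subunits of the core (psmb1 to psmb7), 5 beta subunits that replace them in immune cells or in particular tissues (psmb8a, psmb9a, psmb10, psmb11b and psmb12), 7 ATPases of the regulatory particle (psmc), 13 of its other subunits (psmd), 3 psmd genes that are assembly chaperones (psmd5, psmd9 and psmd10), 4 activators (psme), the inhibitor psmf1, 3 core assembly chaperones (psmg) and psmc3ip. The last matches by name only: its product works with recombinases in meiosis and is no proteasome subunit. The 36 alpha, constitutive beta and regulatory particle genes are called the standard subunits below.

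The study profiled RNA in 18 libraries and chromatin accessibility in 18 further samples that were not analysed here. Groups are named by days post amputation (dpa), 0 dpa being an uninjured fin. RNA libraries were compared in 4 sets: whole fins at 4 dpa against whole fins at 0 dpa in batch 1 (2 libraries each); whole fins labelled 1 dpa against whole fins labelled 0 dpa in batch 2 (3 each); fibroblasts at 4 dpa against fibroblasts at 0 dpa in batch 3 (2 each); and, also in batch 3, single whole-fin libraries with the LEN deletion and without it (called wild type here) at 2 dpa and at 0 dpa. LEN is an enhancer linked to the leptin b gene. Whole-fin libraries each pooled 15 fish of the outbred Ekkwill (EK) strain. The fish of all groups, fibroblast groups included, were aged from 3 to 12 months in one protocol and from 4 to 12 months in another. Fibroblast libraries each pooled 75 fish, all of which, at 0 dpa too, had fins that were cut once, treated with 4 µM tamoxifen for 12 h from 2 dpa and left to regrow for 2 months. Their transgene is given as Tg(tph1b:mCherry-NTR;ubi:switch) in one protocol and as Tg(tph1b:creER;ubi:switch) in another, so the cells are those marked through the tph1b promoter. The series text describes enzymatic dissociation with Liberase. Replicates are pools, so in the replicated sets the p-values measure the spread between 2 or 3 pools. The 2 over 0 dpa comparison had single libraries per genotype and time. Its p-values assume that both genotypes respond alike. Where a bulk library changed, fewer cells of a type and less RNA per cell cannot be told apart.

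The proteasome is the protease that degrades proteins tagged with ubiquitin. Its core is a barrel with outer rings of alpha subunits, which gate the entrance, and inner rings of beta subunits, of which psmb5, psmb6 and psmb7 carry the protein-cutting sites. The regulatory particle caps the barrel: its psmc ATPases unfold the substrate and open the gate, and its psmd subunits bind ubiquitin, hold the particle together and, in psmd14, cut ubiquitin chains off. Interferon-responsive cells swap these cutting subunits for psmb8, psmb9 and psmb10 and add the psme1 and psme2 activator cap, a form known for making peptides for antigen presentation. In a regenerating fin, wound epidermis covers a blastema of dividing fibroblast-lineage and bone-forming cells.

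Libraries held 19427984 to 43871436 counts assigned to genes, and the members together took 0.224% to 0.800% of them. The gene psmd2, a large scaffold subunit of the regulatory particle, is listed at 0 in every library, so 52 members could be tested, and these 52 passed the filter on low counts in each comparison. The deposited names of the batch 2 libraries give the 1 dpa and 0 dpa groups the other way round from the labels, and the labels were followed. In that batch all 23 genes of a proliferation list were lower in the libraries labelled 1 dpa, at a summed 351 to 499.7 CPM (counts scaled by each library's gene total and edgeR's TMM factor), against 2334 to 2626 CPM in those labelled 0 dpa. In the other 3 comparisons 22 or 23 of these 23 genes were higher in the injured samples. The direction of every batch 2 result below therefore rests on labels that the libraries' names contradict. Sorted fibroblasts had 5399 to 5794 summed CPM of 15 epidermis markers at 4 dpa and 18077 to 38957 CPM at 0 dpa, against 37308 to 144079 CPM in whole fins, and of their 16 fibroblast markers only fbln1 was at 0, as it was in whole fins. Transcripts of tph1b, the gene whose promoter marks these cells, were at 203 CPM in both fibroblast libraries at 4 dpa, against 5.70 and 6.57 CPM at 0 dpa.

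Nearly all standard subunits were higher than at 0 dpa in whole fins at 4 dpa, in the 2 dpa fins and in fibroblasts at 4 dpa, and nearly all were lower in the fins labelled 1 dpa than in those labelled 0 dpa. In whole fins at 4 dpa, 33 of 35 tested standard subunits rose, 1 fell and 1 did not pass the test (edgeR quasi-likelihood F test, adjusted p under 0.05 over all 11912 genes tested), with a median log2 fold change of 1.06. Over all genes tested in that comparison 32.5% were called higher and 33.0% lower, and the median log2 fold change was -0.01. Of all 52 tested members 37 rose and 6 fell, and 26 were called with a change of at least 2-fold. Of all 11912 genes tested 4141 were called with a change of that size. The 6 became 3 without the second 4 dpa library and 0 when only library size was used for scaling. In batch 3, 34 of 35 standard subunits rose in the 2 dpa libraries against the 0 dpa libraries, genotype held as a block, and 1 fell, with a median of 0.94, where 31.2% of all genes were called higher, 31.1% lower and the median was 0.00. Fibroblasts at 4 dpa showed 34 of 35 standard subunits higher and none lower, with a median of 1.62, against 27.8% of all genes called higher, 26.2% lower and a median of -0.00. In batch 2 the libraries labelled 1 dpa had 34 of 35 standard subunits lower than those labelled 0 dpa and none higher, with a median of -1.83, against 39.9% of all genes lower, 42.0% higher and a median of 0.06.

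**Figure D1:**
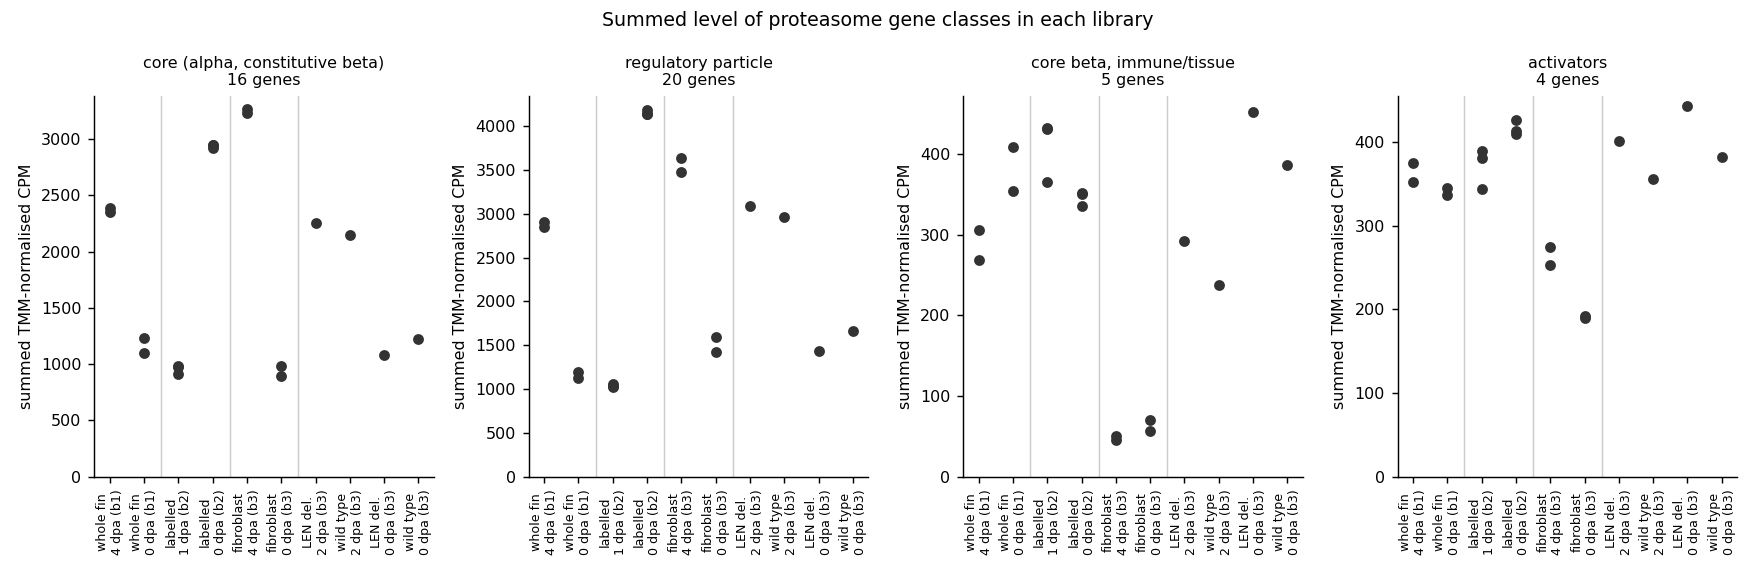
Summed CPM of the 16 constitutive core genes, the 20 regulatory particle genes, the 5 immune or tissue beta genes and the 4 activator genes, on linear axes from 0. Each point is 1 library; the constitutive core sums lie at 2353 and 2386 CPM in whole fins at 4 dpa, above 1101 and 1230 CPM at 0 dpa.

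Summed over the 16 constitutive core genes, whole fins at 4 dpa held 2353 and 2386 CPM, against 1101 and 1230 CPM at 0 dpa. Fibroblasts held 3235 and 3266 CPM at 4 dpa, against 892 and 979 CPM at 0 dpa. In batch 3 whole fins the sum was 2257 CPM (LEN deletion) and 2149 CPM (wild type) at 2 dpa, against 1081 CPM (LEN deletion) and 1220 CPM (wild type) at 0 dpa. No injured and uninjured library overlapped in these 3 sets, but most single genes separated as well. In whole fins 5518 of 11912 genes lay higher in every 4 dpa library and 4479 lower. These counts were 4406 and 5116 of 12011 genes in fibroblasts, and 5013 and 4721 of 11873 at 2 dpa. For the same core sum, the 3 libraries labelled 1 dpa held 915 to 984 CPM, against 2922 to 2946 CPM in those labelled 0 dpa. The sums in libraries labelled 0 dpa were above those of whole fins at 4 dpa in batch 1, a contrast between batches that was not tested.

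The sum over the 20 regulatory particle genes moved in the same direction within each set. It was 2905 and 2854 CPM in whole fins at 4 dpa, against 1189 and 1122 CPM at 0 dpa, and 3477 and 3633 CPM in fibroblasts at 4 dpa, against 1425 and 1593 CPM at 0 dpa. It was 3084 CPM (LEN deletion) and 2968 CPM (wild type) at 2 dpa, against 1435 CPM (LEN deletion) and 1659 CPM (wild type) at 0 dpa. Libraries labelled 1 dpa held 1018 to 1053 CPM, against 4137 to 4189 CPM in those labelled 0 dpa. The 5 immune or tissue beta genes summed to 269 and 306 CPM in whole fins at 4 dpa, against 354 and 409 CPM at 0 dpa.

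Markers of other cell types moved in the same comparisons. In whole fins at 4 dpa all 15 epidermis markers were lower, all 15 tested fibroblast markers higher and 11 of 18 tested leukocyte markers lower. Of all genes 32.5% were called higher there and 33.0% lower. Another 3 leukocyte markers were higher (mpeg1.1, mfap4 and spi1b), and 4 were not called, among them lcp1 and coro1a. The summed leukocyte level was 1821 to 1834 CPM at 4 dpa, against 4767 to 6006 CPM at 0 dpa, and rested on the antigen presentation genes cd74a and cd74b, which made up 66.2% to 73.2% of it at 4 dpa, against 87.4% to 88.0% at 0 dpa. The other 17 markers summed to 616 and 492 CPM at 4 dpa, against 599 and 720 CPM at 0 dpa, so without those 2 genes the groups overlapped. The proliferation list summed to 2687 to 2989 CPM at 4 dpa, against 519.6 to 620.3 CPM at 0 dpa. In fibroblasts a list of 21 heat shock and dissociation stress genes summed to 34581 to 35695 CPM at 4 dpa, against 143548 to 188421 CPM at 0 dpa. Of its genes 17 were lower in fibroblasts, where 26.2% of all genes were called lower. The single gene hsp70.1, an inducible heat shock chaperone, held 8530 and 7637 CPM in fibroblasts at 4 dpa, against 44730 and 65483 CPM at 0 dpa, while whole fins held between 2.16 and 28.0 CPM. The part of these shifts in the proteasome results was not tested.

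**Figure D2:**
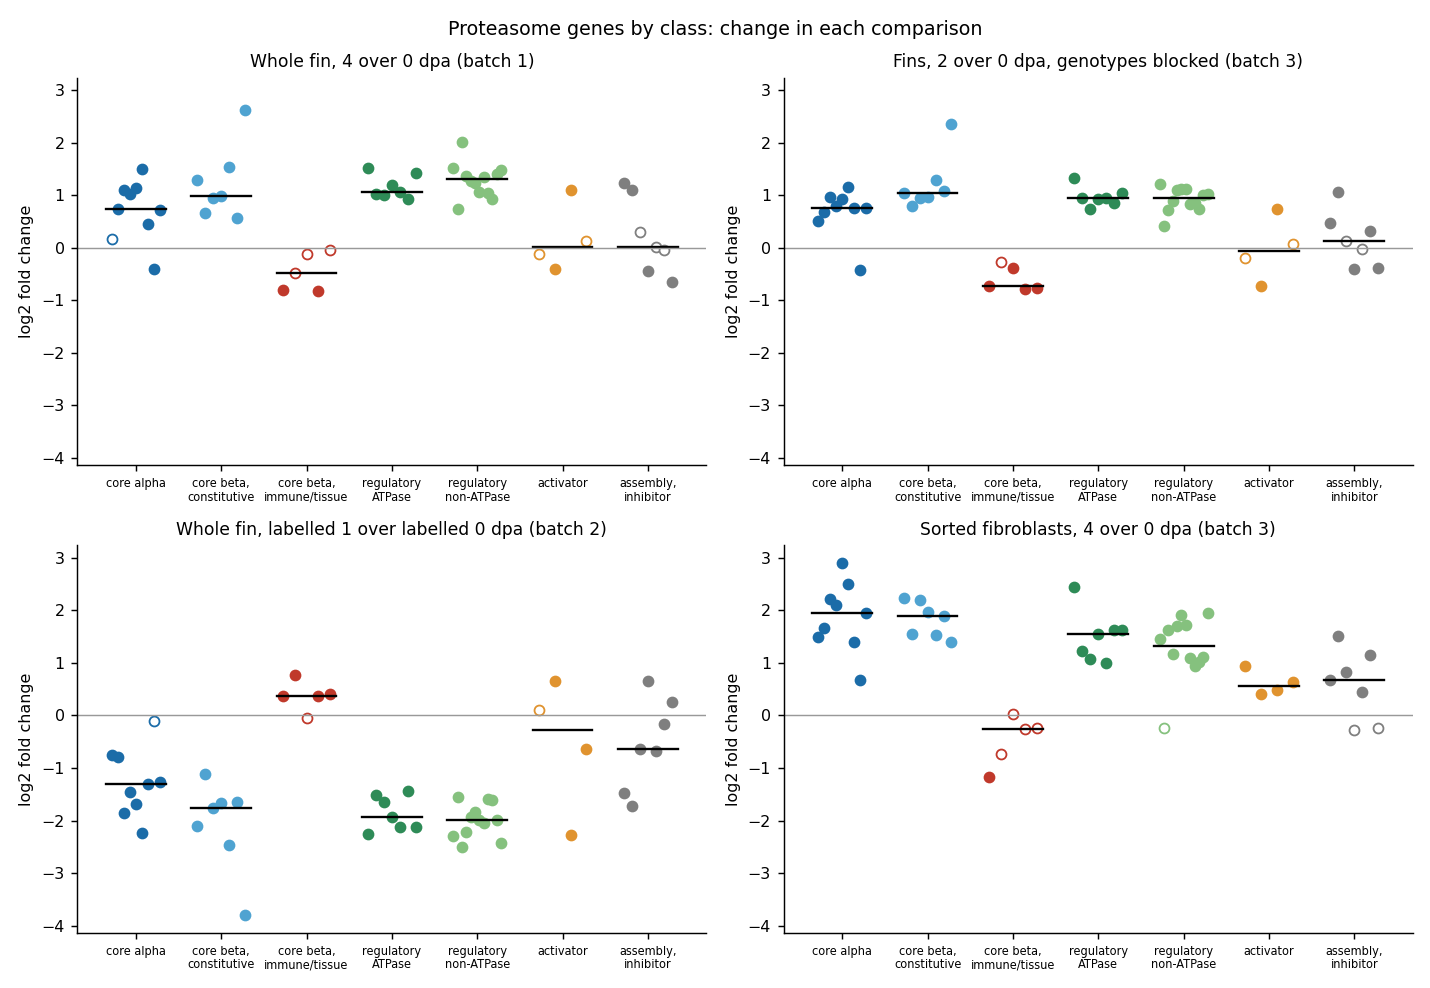
Log2 fold change of each tested member except psmc3ip by class in the 4 tested comparisons, with the injured or later-labelled group over its 0 dpa group. Filled points passed the test and open points did not; black lines are class medians, which for the constitutive beta genes are 0.98 (whole fins, 4 over 0 dpa), 1.03 (2 over 0 dpa), -1.76 (labelled 1 over labelled 0 dpa) and 1.89 (fibroblasts).

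Alpha subunits form the outer rings of the core. In whole fins at 4 dpa 7 of 9 rose, with a median log2 fold change of 0.73, the lowest of the 4 standard classes, and in fibroblasts all 9 rose, with a median of 1.96. In the 2 dpa libraries 8 of 9 rose (median 0.76), and in the libraries labelled 1 dpa 8 of 9 were lower (median -1.31). Of all genes 32.5% were called higher in whole fins at 4 dpa, 27.8% in fibroblasts and 31.2% in the 2 dpa libraries. In the libraries labelled 1 dpa 39.9% were called lower. The gene with the largest rise of any member in fibroblasts was psma5, at 378 and 322 CPM at 4 dpa, against 51.4 and 49.0 CPM at 0 dpa (log2 fold change 2.90 ± 0.17, SE, adjusted p = 2.19e-06). In whole fins psma5 held 148 and 168 CPM at 4 dpa, against 74.8 and 59.7 CPM at 0 dpa (1.13 ± 0.14, adjusted p = 9.51e-05). Over all 18 libraries psma5 ranged between 47.9 CPM, in a library labelled 1 dpa, and 378 CPM, in fibroblasts at 4 dpa.

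Among the alpha genes psma6a rose in both tissues. It held 92.0 and 90.2 CPM in whole fins at 4 dpa, against 28.9 and 31.2 CPM at 0 dpa (log2 fold change 1.49 ± 0.12, adjusted p = 5.58e-06), and 99.5 and 93.2 CPM in fibroblasts at 4 dpa, against 17.1 and 19.4 CPM at 0 dpa (2.50 ± 0.16, adjusted p = 3.19e-06). Its paralog psma6b rose less in whole fins, at 61.8 and 66.9 CPM at 4 dpa, against 40.3 and 46.8 CPM at 0 dpa (0.46 ± 0.13, adjusted p = 0.0107). The ratio of psma6a to psma6b counts was 1.49 and 1.35 in whole fins at 4 dpa, against 0.719 and 0.665 at 0 dpa, and 1.99 and 2.06 in fibroblasts at 4 dpa, against 0.783 and 1.14 at 0 dpa. Reads that paralogs share could have been split or dropped in the counting, so such ratios compare libraries and not the true proportions of the transcripts.

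The third gene of this subunit type, psma6l, went against its class. It held 39.7 CPM in both whole-fin libraries at 4 dpa, against 42.6 and 55.2 CPM at 0 dpa (log2 fold change -0.41 ± 0.14, adjusted p = 0.0301), and it also fell in the 2 dpa libraries (-0.42 ± 0.13, adjusted p = 0.0171). No standard subunit was called lower at 4 dpa under library-size scaling, in a joint fit of all replicated groups, or without the second 0 dpa or either 4 dpa library, so the call of psma6l was lost there. In fibroblasts psma6l was low in all 4 libraries, at 15.8 and 16.4 CPM at 4 dpa, against 12.4 and 9.0 CPM at 0 dpa, and rose (0.68 ± 0.21, adjusted p = 0.0215). The current gene table lists psma6b as an older name of psma6l, so which transcripts were counted under each symbol is uncertain. The alpha gene that missed the test in whole fins was psma1, with 149 and 152 CPM at 4 dpa, against 102 and 146 CPM at 0 dpa (0.17 ± 0.17, adjusted p = 0.396).

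The catalytic beta genes changed by unequal amounts in whole fins. All 7 constitutive beta genes rose in whole fins at 4 dpa, in the 2 dpa libraries and in fibroblasts at 4 dpa. The shares of all genes called higher were 32.5%, 31.2% and 27.8%, in that order. All 7 were lower in the libraries labelled 1 dpa, where 39.9% of all genes were called lower. The gene psmb7, for the subunit that cuts after basic residues, had the largest change of any member in whole fins: 137 and 127 CPM at 4 dpa, against 21.3 and 18.8 CPM at 0 dpa (log2 fold change 2.61 ± 0.13, adjusted p = 4.27e-07). In batch 3 it held 129 CPM (LEN deletion) and 137 CPM (wild type) at 2 dpa, against 20.3 CPM (LEN deletion) and 32.4 CPM (wild type) at 0 dpa (2.35 ± 0.15, adjusted p = 4.25e-06). Libraries labelled 1 dpa held 10.9 to 11.8 CPM, against 164 to 165 CPM in those labelled 0 dpa (-3.80 ± 0.05, adjusted p = 6.18e-10).

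Fibroblasts held more psmb7 than the whole fins of batch 1 at both times, a contrast between batches that was not tested, with 451 and 498 CPM at 4 dpa, against 154 and 231 CPM at 0 dpa (log2 fold change 1.40 ± 0.20, adjusted p = 0.000492). Both uninjured fibroblast libraries were above every whole-fin library except those labelled 0 dpa, whose 164 to 165 CPM lay between them. Within batch 3, uninjured fibroblasts can be set beside the uninjured wild-type fin, at 154 and 231 CPM in fibroblasts and 32.4 CPM in the fin, but the sort, the earlier regrowth and the tissue cannot be told apart in that contrast.

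**Figure D3:**
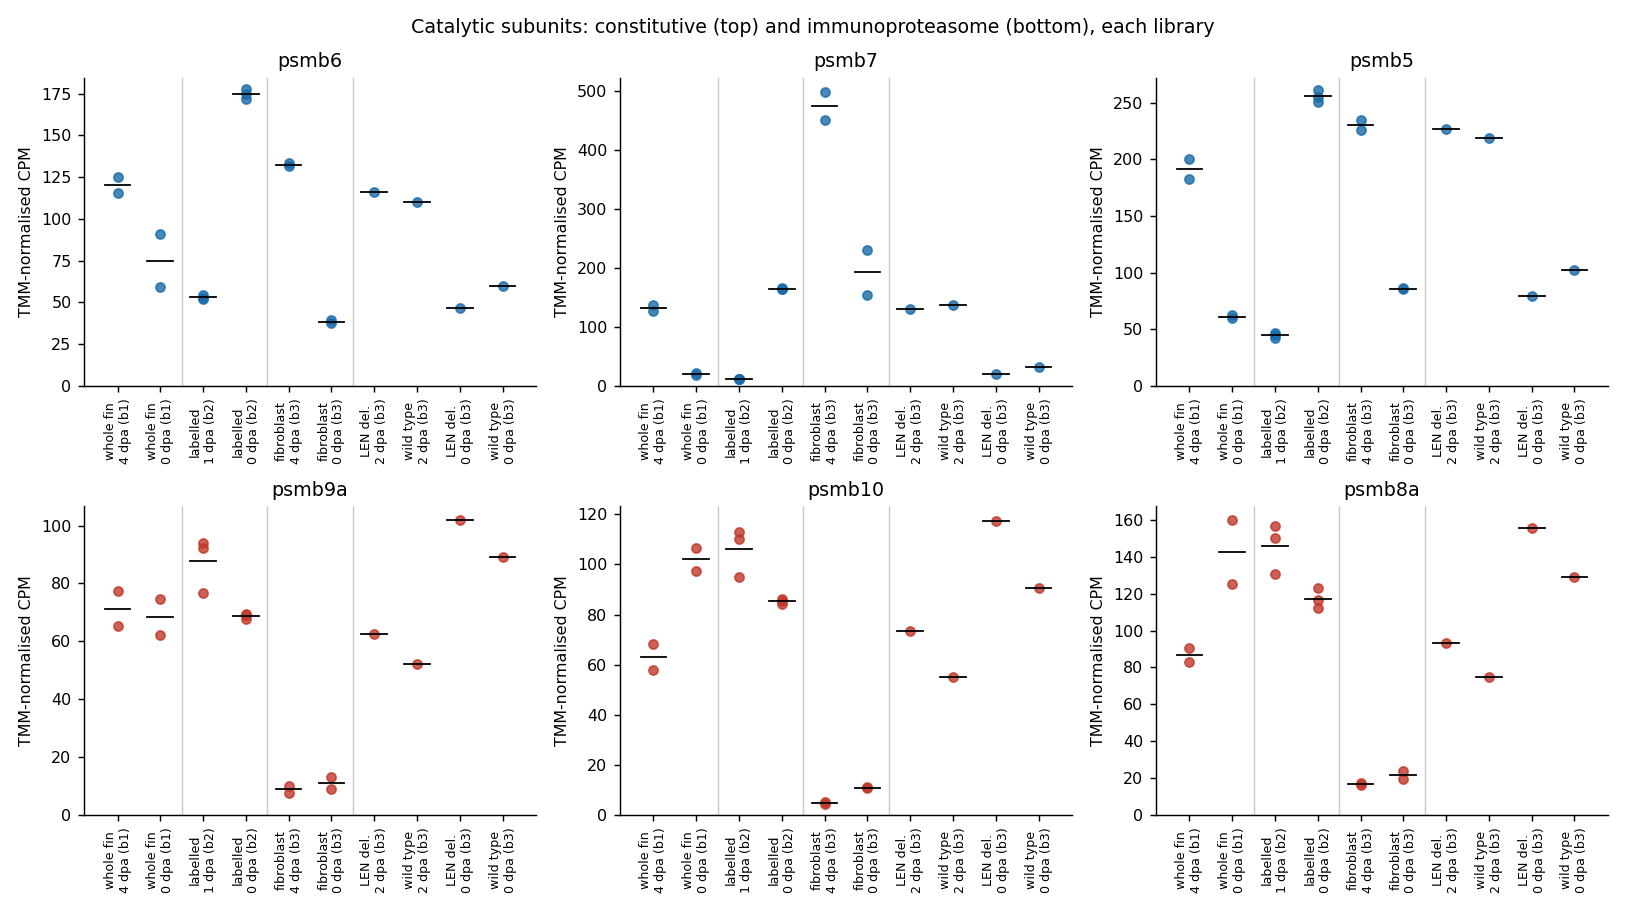
CPM of the 3 constitutive catalytic genes psmb5, psmb6 and psmb7 and of their immune counterparts psmb8a, psmb9a and psmb10 in every library, with group means as black lines; axes are linear and start at 0. Fibroblasts at 4 dpa hold the highest psmb7 (451 and 498 CPM), and the 4 fibroblast libraries the lowest psmb10 (4.06 to 10.8 CPM).

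The gene psmb5, for the subunit that cuts after large hydrophobic residues, held 201 and 183 CPM in whole fins at 4 dpa, against 60.2 and 62.1 CPM at 0 dpa (log2 fold change 1.54 ± 0.12, adjusted p = 4.57e-06). Fibroblasts showed nearly the same change, with 226 and 235 CPM at 4 dpa, against 85.1 and 86.0 CPM at 0 dpa (1.53 ± 0.14, adjusted p = 2.01e-05). At 2 dpa it held 227 CPM (LEN deletion) and 219 CPM (wild type), against 79.6 CPM (LEN deletion) and 102 CPM (wild type) at 0 dpa. Libraries labelled 1 dpa held 42.5 to 46.4 CPM, against 250.4 to 261 CPM in those labelled 0 dpa (-2.46 ± 0.05, adjusted p = 2.12e-09).

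The gene psmb6, for the subunit that cuts after acidic residues, rose in whole fins, where its 0 dpa libraries lay far apart: it held 115 and 125 CPM at 4 dpa, against 58.9 and 91.1 CPM at 0 dpa (log2 fold change 0.57 ± 0.20, adjusted p = 0.0354). Without the second 4 dpa library that call was lost, at an adjusted p of 0.103. Fibroblasts held 133 and 132 CPM of psmb6 at 4 dpa, against 39.2 and 37.4 CPM at 0 dpa (1.89 ± 0.14, adjusted p = 7.24e-06). At 2 dpa the libraries held 116 CPM (LEN deletion) and 109.8 CPM (wild type), against 46.6 CPM (LEN deletion) and 59.8 CPM (wild type) at 0 dpa. The structural beta genes psmb1, psmb2, psmb3 and psmb4 changed between 0.66 and 1.28 in whole fins at 4 dpa and between 1.55 and 2.23 in fibroblasts, on the log2 scale.

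The ATPases of the regulatory particle moved together. All 7 rose in whole fins at 4 dpa, with log2 fold changes from 0.92 (psmc5) to 1.52 (psmc1a), and all 7 rose in the 2 dpa libraries (0.74 to 1.33) and in fibroblasts (0.99 for psmc4 to 2.45 for psmc1a). In the libraries labelled 1 dpa all 7 were lower, from -1.44 to -2.26, where 39.9% of all genes were called lower. The shares of all genes called higher were 32.5% in whole fins at 4 dpa, 31.2% in the 2 dpa libraries and 27.8% in fibroblasts. The gene psmc1a held 168 and 165 CPM in whole fins at 4 dpa, against 54.8 and 53.4 CPM at 0 dpa (adjusted p = 4.1e-06), and 225 and 222 CPM in fibroblasts at 4 dpa, against 44.3 and 43.0 CPM at 0 dpa (adjusted p = 2.39e-06). Its paralog psmc1b held 88.3 and 84.1 CPM in whole fins at 4 dpa, against 40.0 and 38.6 CPM at 0 dpa (1.03 ± 0.11, adjusted p = 4.12e-05), and 86.4 and 82.2 CPM in fibroblasts at 4 dpa, against 38.7 and 38.2 CPM at 0 dpa (1.23 ± 0.14, adjusted p = 8.96e-05).

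The ratio of psmc1a to psmc1b counts, which does not depend on how libraries are scaled, was 1.90 and 1.97 in whole fins at 4 dpa, against 1.37 and 1.38 at 0 dpa. In fibroblasts it was 2.60 and 2.70 at 4 dpa, against 1.15 and 1.13 at 0 dpa. At 2 dpa it was 1.53 (LEN deletion) and 1.55 (wild type), against 1.19 (LEN deletion) and 1.15 (wild type) at 0 dpa. In these 3 sets every injured library had the higher ratio, and the libraries labelled 1 dpa, at 0.930 to 1.06, had a lower ratio than those labelled 0 dpa, at 1.60 to 1.77. Most single genes also separated the groups of the 3 sets, as given above. For count ratios, here and below, no such share over all gene pairs was determined.

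The other subunits of the regulatory particle were called higher in 12 of 12 cases in whole fins at 4 dpa (median log2 fold change 1.31), in 12 of 12 in the 2 dpa libraries (median 0.95) and in 11 of 12 in fibroblasts (median 1.32). All 12 were lower in the libraries labelled 1 dpa (median -1.99), where 39.9% of all genes were called lower. The shares of all genes called higher were 32.5% in whole fins at 4 dpa, 31.2% in the 2 dpa libraries and 27.8% in fibroblasts. The scaffold subunit gene psmd1 held 276 and 263 CPM in whole fins at 4 dpa, against 81.4 and 92.9 CPM at 0 dpa, and in the 2 dpa libraries it had the largest change of the class (1.21 ± 0.10, adjusted p = 3.21e-06). The gene psmd8, a lid subunit, had the largest change of the class in fibroblasts, with 165 and 160.1 CPM at 4 dpa, against 42.2 and 47.4 CPM at 0 dpa (1.96 ± 0.15, adjusted p = 7.32e-06).

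The paralogs psmd4a and psmd4b, which encode a ubiquitin receptor, both rose: psmd4a changed by 1.34 ± 0.12 and psmd4b by 1.04 ± 0.12 in whole fins at 4 dpa, and by 1.1 ± 0.17 and 0.95 ± 0.15 in fibroblasts, on the log2 scale. The ratio of psmd4a to psmd4b counts was 0.500 and 0.530 in whole fins at 4 dpa, against 0.415 and 0.422 at 0 dpa, and 0.421 and 0.384 in fibroblasts at 4 dpa, against 0.354 and 0.368 at 0 dpa. At 2 dpa it was 0.516 (LEN deletion) and 0.485 (wild type), against 0.510 (LEN deletion) and 0.504 (wild type) at 0 dpa, and the libraries labelled 1 dpa had 0.411 to 0.429, against 0.565 to 0.593 in those labelled 0 dpa. The groups overlapped only at 2 dpa. The fold changes of the paralogs psmd11a and psmd11b, whose products tie the lid to the core, lay further apart in whole fins. In whole fins psmd11b held 82.9 and 75.9 CPM at 4 dpa, against 21.3 and 15.2 CPM at 0 dpa (2.02 ± 0.16, adjusted p = 6.73e-06), while psmd11a held 81.2 and 75.8 CPM at 4 dpa, against 47.5 and 40.0 CPM at 0 dpa (0.74 ± 0.12, adjusted p = 0.00063). In fibroblasts psmd11b held 172 and 171 CPM at 4 dpa, against 46.4 and 72.8 CPM at 0 dpa (1.62 ± 0.22, adjusted p = 0.000431). The gene psmd11a held 129 and 143 CPM in fibroblasts at 4 dpa, against 159 and 183 CPM at 0 dpa, and did not pass the test (-0.24 ± 0.15, adjusted p = 0.197). It was the one standard subunit not called in fibroblasts.

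The ratio of psmd11a to psmd11b counts was 0.980 and 0.998 in whole fins at 4 dpa, against 2.23 and 2.63 at 0 dpa. In fibroblasts it was 0.751 and 0.839 at 4 dpa, against 3.43 and 2.51 at 0 dpa. At 2 dpa it was 1.21 (LEN deletion) and 1.13 (wild type), against 1.48 (LEN deletion) and 1.41 (wild type) at 0 dpa. Injured libraries thus had the lower ratio in all 3 sets, with the smallest gap at 2 dpa, where psmd11b changed by 0.71 ± 0.11 and psmd11a by 0.41 ± 0.11. The libraries labelled 1 dpa had 2.39 to 2.85, against 1.31 to 1.34 in those labelled 0 dpa.

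The beta subunits of the immune form did not rise with the standard ones. In whole fins at 4 dpa none of the 5 immune or tissue beta genes rose and 2 fell, where 32.5% of all genes were called higher and 33.0% lower. The gene psmb8a, the immune counterpart of psmb5, held 82.6 and 90.6 CPM at 4 dpa, against 125 and 160.2 CPM at 0 dpa (log2 fold change -0.83 ± 0.14, adjusted p = 0.00079). The gene psmb10, the counterpart of psmb7, held 58.0 and 68.2 CPM at 4 dpa, against 97.4 and 107 CPM at 0 dpa (-0.80 ± 0.13, adjusted p = 0.000484). For psmb9a, the counterpart of psmb6, the groups overlapped, at 65.2 and 77.3 CPM at 4 dpa, against 62.2 and 74.7 CPM at 0 dpa (-0.05 ± 0.14, adjusted p = 0.771). Both falls missed the threshold when only library size was used for scaling (psmb8a -0.36, adjusted p = 0.078; psmb10 -0.34, adjusted p = 0.102), a scaling that moves the median of all genes from -0.01 to 0.44.

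In the 2 dpa libraries 4 of these 5 genes were lower than in the 0 dpa libraries, where 31.1% of all genes were called lower. The gene psmb8a held 93.3 CPM (LEN deletion) and 74.6 CPM (wild type) at 2 dpa, against 156 CPM (LEN deletion) and 129 CPM (wild type) at 0 dpa (log2 fold change -0.79 ± 0.10, adjusted p = 6.61e-05). There psmb9a fell as well, to 62.6 CPM (LEN deletion) and 52.0 CPM (wild type) at 2 dpa, against 102 CPM (LEN deletion) and 89.1 CPM (wild type) at 0 dpa (-0.76 ± 0.10, adjusted p = 8.14e-05), and psmb10 fell by 0.72 on the log2 scale (SE 0.10, adjusted p = 0.000118). The gene psmb12 changed by -0.39 ± 0.10 (adjusted p = 0.00702). Its symbol is also an older name of another beta gene in the current gene table, psmb13a, which was not analysed here, so its counts are of uncertain identity, as are those of psmb10, whose symbol is listed in the same way.

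Fibroblasts held little of the immune beta genes at either time. In them psmb8a had 16.3 and 17.2 CPM at 4 dpa, against 23.5 and 19.3 CPM at 0 dpa (log2 fold change -0.26 ± 0.18, adjusted p = 0.252), and psmb9a had 7.54 and 10.0 CPM at 4 dpa, against 13.2 and 9.0 CPM at 0 dpa. The gene psmb10 was the one member that fell in fibroblasts, to 4.06 and 4.94 CPM at 4 dpa, against 10.8 CPM in both 0 dpa libraries (-1.17 ± 0.23, adjusted p = 0.00209). Without the first 4 dpa fibroblast library its adjusted p was 0.0549, and without the second 0 dpa library psmb8a (-0.41, adjusted p = 0.0459) and psmb9a (-0.50, adjusted p = 0.0290) were called lower. Whole-fin libraries of all batches held between 74.6 and 160.2 CPM of psmb8a. That contrast was not tested, and tissue, sort, earlier regrowth and batch cannot be told apart in it. Lower levels in fibroblasts were not particular to these genes, as psme1 held 23.4 to 45.7 CPM there, against 119 to 168 CPM in whole fins. The tissue gene psmb11b was low everywhere, at 1.57 to 3.03 CPM in fibroblasts and 1.16 to 3.89 CPM in whole fins.

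In the libraries labelled 1 dpa 4 of the 5 genes were higher than in those labelled 0 dpa, where 42.0% of all genes were called higher. The gene psmb8a held 150.1, 131 and 157 CPM, against 123, 116 and 112 CPM (log2 fold change 0.38 ± 0.07, adjusted p = 0.0012), psmb9a changed by 0.41 ± 0.08 (adjusted p = 0.000908) and psmb10 by 0.38 ± 0.07 (adjusted p = 0.00069). The summed level of the 19 leukocyte markers was 7402 to 8208 CPM in libraries labelled 1 dpa and 840 to 1129 CPM in those labelled 0 dpa. Of that sum cd74a and cd74b made up 87.4% to 88.0% in the libraries labelled 1 dpa and 52.1% to 67.4% in those labelled 0 dpa, and the other 17 markers summed to 921 to 989 CPM, against 274 to 445 CPM. One leukocyte marker, spi1b, was lower in the libraries labelled 1 dpa, and mpx and mfap4 were not called. In batch 3 whole fins the sum of the 19 markers was 1281 CPM (LEN deletion) and 1081 CPM (wild type) at 2 dpa, against 5383 CPM (LEN deletion) and 3770 CPM (wild type) at 0 dpa. The other 17 markers summed to 533 CPM (LEN deletion) and 454 CPM (wild type) at 2 dpa, against 876 CPM (LEN deletion) and 611 CPM (wild type) at 0 dpa. Fibroblasts held 1341 to 1471 CPM of these markers at 4 dpa, against 1012 to 1332 CPM at 0 dpa. Without cd74a and cd74b the sum was 1127 and 1221 CPM in fibroblasts at 4 dpa, against 513 and 774 CPM at 0 dpa. The part of leukocytes in the immune beta results was not tested beyond these values.

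**Figure D4:**
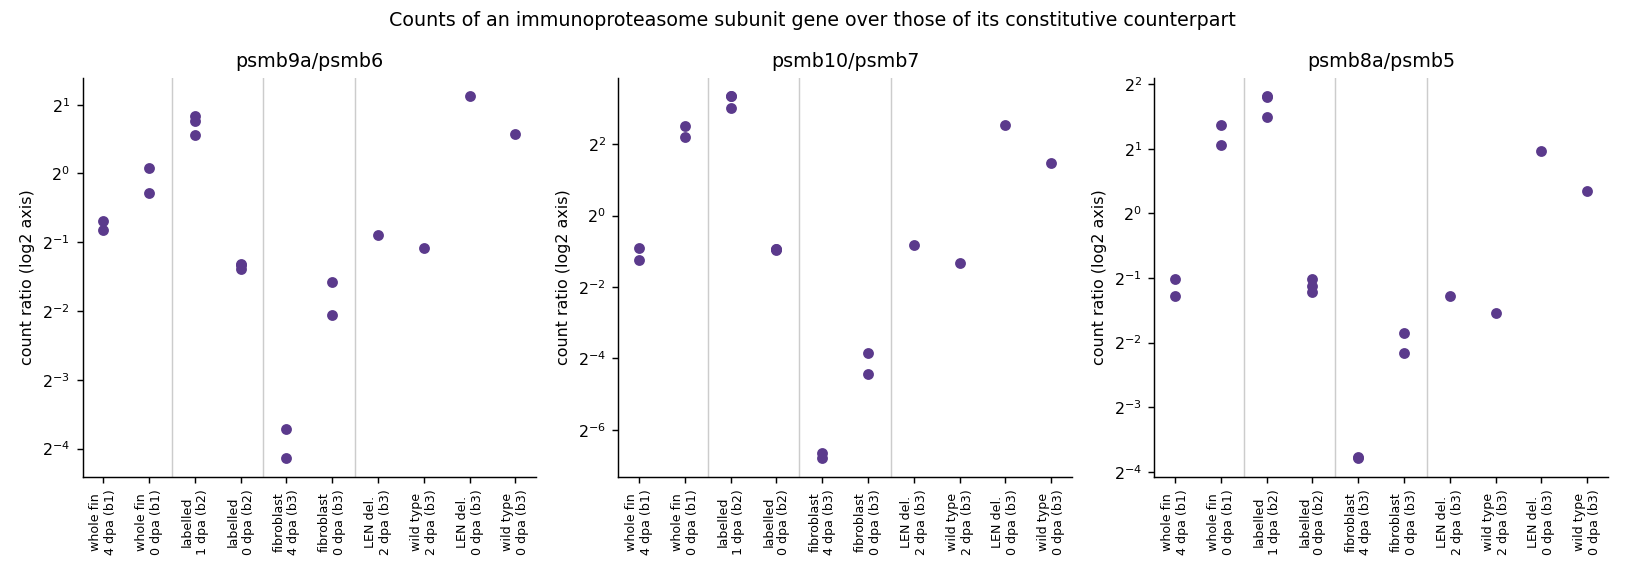
Ratio of counts of each immune beta gene to its constitutive counterpart (psmb8a to psmb5, psmb9a to psmb6, psmb10 to psmb7) in every library, on a log axis. For psmb8a to psmb5 the whole fins at 4 dpa lie at 0.412 and 0.495, below 2.08 and 2.58 at 0 dpa, and fibroblasts at 4 dpa are lowest, at 0.0721 and 0.0731.

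The balance between immune and constitutive catalytic genes can be read within a library, where no scaling enters. The ratio of psmb8a to psmb5 counts was 0.412 and 0.495 in whole fins at 4 dpa, against 2.08 and 2.58 at 0 dpa. It was 0.412 (LEN deletion) and 0.341 (wild type) at 2 dpa, against 1.96 (LEN deletion) and 1.27 (wild type) at 0 dpa. In fibroblasts it was 0.0721 and 0.0731 at 4 dpa, against 0.276 and 0.224 at 0 dpa. All injured libraries of these 3 sets lay below their uninjured ones, but most single genes separated these groups as well. Libraries labelled 1 dpa had 2.82 to 3.53, against 0.430 to 0.492 in those labelled 0 dpa.

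The ratio of psmb10 to psmb7 spread most widely. It was 0.424 and 0.536 in whole fins at 4 dpa, against 4.57 and 5.69 at 0 dpa, and 0.00899 and 0.00993 in fibroblasts at 4 dpa, against 0.0702 and 0.0467 at 0 dpa. Libraries labelled 1 dpa had 8.07 to 10.2, against 0.515 to 0.523 in those labelled 0 dpa. For psmb9a to psmb6 the ratio was 0.566 and 0.616 in whole fins at 4 dpa, against 1.06 and 0.820 at 0 dpa, and 0.0566 and 0.0763 in fibroblasts at 4 dpa, against 0.336 and 0.241 at 0 dpa. Transcript lengths were not used, so these ratios compare libraries and not the amounts of the 2 subunits.

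The activators did not move together in whole fins. The genes psme1 and psme2 encode both chains of the interferon-inducible cap, psme3 a nuclear cap and psme4b a single-chain nuclear activator. In whole fins psme3 rose, with 62.8 and 59.5 CPM at 4 dpa, against 30.3 and 22.9 CPM at 0 dpa (log2 fold change 1.1 ± 0.15, adjusted p = 0.000141). There psme1 held 139 and 134 CPM at 4 dpa, against 136 and 138 CPM at 0 dpa (-0.12 ± 0.11, adjusted p = 0.368). The gene psme2 fell, with 96.4 and 97 CPM at 4 dpa, against 121 and 115 CPM at 0 dpa (-0.40 ± 0.11, adjusted p = 0.0102), a call that was lost without either 4 dpa library (adjusted p = 0.118 and 0.0891). Under library-size scaling psme1 stood at 0.34 and psme2 at 0.06.

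In the 2 dpa libraries psme3 rose (log2 fold change 0.74 ± 0.11, adjusted p = 0.000155) and psme2 fell, to 99.0 CPM (LEN deletion) and 74.7 CPM (wild type), against 159.8 CPM (LEN deletion) and 125 CPM (wild type) at 0 dpa (-0.74 ± 0.10, adjusted p = 0.000105). In the libraries labelled 1 dpa psme2 was the member above 5 CPM with the largest increase, at 152, 129.6 and 153 CPM, against 105, 93.1 and 89.8 CPM in those labelled 0 dpa (0.66 ± 0.08, adjusted p = 8.7e-05), and psme3 held 15.9 to 16.4 CPM, against 76.7 to 88.4 CPM (-2.28 ± 0.07, adjusted p = 7.35e-09).

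Fibroblasts were the one set in which all 4 activators were called higher, where 27.8% of all genes were called higher. There psme1 held 41.9 and 45.7 CPM at 4 dpa, against 25.2 and 23.4 CPM at 0 dpa (log2 fold change 0.95 ± 0.15, adjusted p = 0.000647). The other 3 changed by 0.41 (psme2), 0.49 (psme3) and 0.64 (psme4b). Single libraries decided these 3 calls. That of psme2 (adjusted p = 0.0425) was lost without the second 0 dpa library (0.147) or either 4 dpa library (0.143 and 0.230) and with DESeq2 (0.0520), that of psme3 (0.0196) without the first 0 dpa library (0.0723) or either 4 dpa library (0.154 and 0.0865), and that of psme4b (0.0116) without the second 4 dpa library (0.168). The inhibitor gene psmf1 fell in whole fins at 4 dpa, at 25.4 and 21.6 CPM, against 27.4 and 32.1 CPM at 0 dpa (-0.45 ± 0.14, adjusted p = 0.0178), and in the 2 dpa libraries (-0.41 ± 0.11, adjusted p = 0.00938). It was higher in the libraries labelled 1 dpa, at 36.5 to 41.9 CPM, against 25.0 to 27.4 CPM (0.65 ± 0.07, adjusted p = 2.64e-05), and was not called in fibroblasts (-0.27 ± 0.19, adjusted p = 0.255).

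Of the 3 assembly chaperones of the regulatory particle, psmd5 and psmd10 rose in whole fins at 4 dpa, by 1.09 ± 0.14 and 1.23 ± 0.14 on the log2 scale, and all 3 rose in fibroblasts, where psmd5 had 12.7 and 14.5 CPM at 4 dpa, against 5.26 and 4.92 CPM at 0 dpa. The third, psmd9, missed the test in whole fins (0.30 ± 0.14, adjusted p = 0.0874). Of the 3 core assembly chaperones none rose in whole fins at 4 dpa, where 32.5% of all genes were called higher and 33.0% lower. There psmg3 fell, at 20.8 and 22.4 CPM at 4 dpa, against 29.9 and 33.4 CPM at 0 dpa (-0.66 ± 0.13, adjusted p = 0.00156, lost under library-size scaling), while psmg1 (0.02 ± 0.13) and psmg2 (-0.04 ± 0.14) did not pass the test. In fibroblasts psmg2 rose, at 33.1 and 32.3 CPM at 4 dpa, against 16.2 and 15.4 CPM at 0 dpa (1.15 ± 0.16, adjusted p = 0.000279), and psmg1 rose by 0.46 (SE 0.14, adjusted p = 0.0231). Of all genes 27.8% were called higher in fibroblasts.

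The response of fibroblasts and of whole fins was compared in one fit over both sets, as the difference of their 4 dpa over 0 dpa log2 fold changes. A positive difference, a higher log2 fold change in fibroblasts, is called the larger change, and a negative difference the smaller. The difference was called for 23 of 52 members, against 36.3% of all 12442 genes tested, 21 with the larger change in fibroblasts and 2 with the smaller, where 18.8% of all genes were called in the first direction and 17.4% in the second. Without the first 0 dpa fibroblast library 7 members had the smaller change. The sets came from different batches, so tissue, sort and batch cannot be told apart. The alpha genes stood together: all 9 were called, with differences from 0.97 to 1.81 and a median of 1.13, against a median of 0.07 over all genes. The largest was psma5 (1.81 ± 0.22, adjusted p = 0.000155), followed by psma1 (1.36 ± 0.24, adjusted p = 0.00133), which rose in fibroblasts, at 234 and 247 CPM at 4 dpa, against 91.3 and 91.6 CPM at 0 dpa, and missed the test in whole fins. Of the 9 alpha calls 7 remained without the second 0 dpa whole-fin library.

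**Figure D5:**
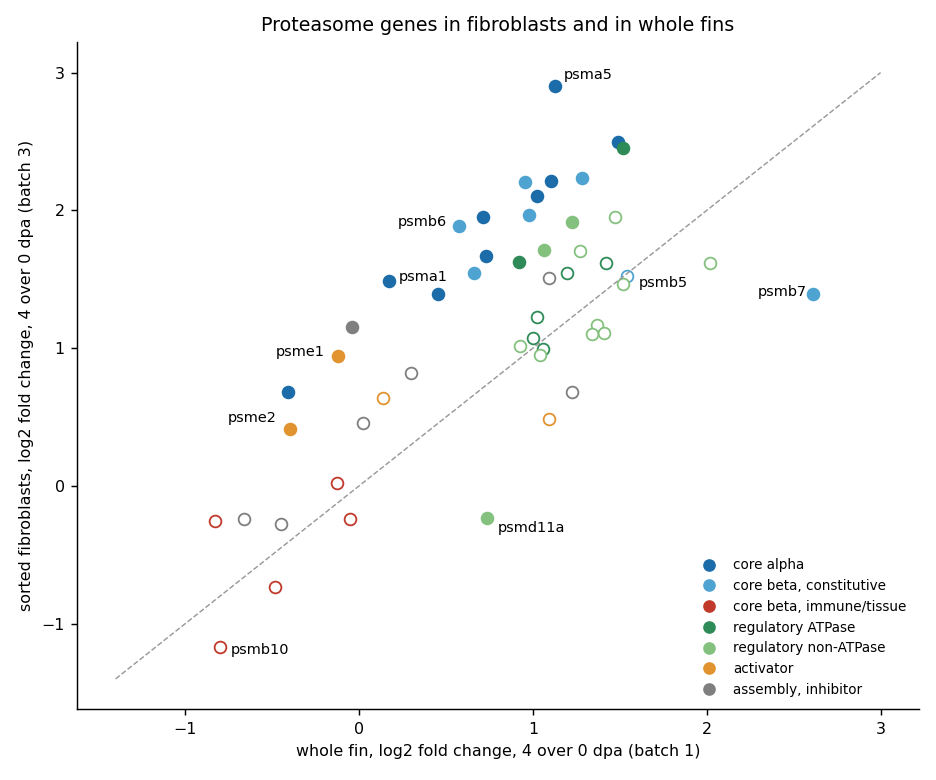
Log2 fold change at 4 over 0 dpa of each tested member except psmc3ip in fibroblasts (vertical axis) against whole fins (horizontal axis), from the separate fit of each set, coloured by class. Filled points are members whose difference between the 2 responses was called, and the dashed line marks equal change. The 9 alpha genes lie above it, while psmb7 and psmd11a lie below it. In the fit over both sets their differences were 0.97 to 1.81 (alpha genes), -1.18 (psmb7) and -0.94 (psmd11a).

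Of the 7 constitutive beta genes 5 had the larger change in fibroblasts, psmb6 the most (1.35 ± 0.26, adjusted p = 0.00268). For psmb5 the difference was 0.02 ± 0.17 (adjusted p = 0.935), and psmb7 went the other way (-1.18 ± 0.26, adjusted p = 0.00507). Of the regulatory particle genes 2 of 7 ATPases (psmc1a, 0.97 ± 0.17, and psmc5, 0.74 ± 0.18) and 2 of 12 other subunits (psmd14, 0.73 ± 0.17, and psmd3, 0.69) had the larger change in fibroblasts. The gene psmd11a had the smaller (-0.94 ± 0.19, adjusted p = 0.00338). Of all genes tested 18.8% were called with the larger change in fibroblasts and 17.4% with the smaller. The genes psmc5, psmd14 and psmd3 are named after their values were seen. Whether the classes differ from one another in this contrast was not tested. None of the 5 immune or tissue beta genes was called in the main fit. With the replicate block psmb8a was called (0.60, adjusted p = 0.0449), and in the joint fit of replicated groups psmb10 was (-0.57, adjusted p = 0.0164). Without the first 0 dpa whole-fin library the difference of psmb8a was 0.78. The activators psme1 (1.1 ± 0.17, adjusted p = 0.000639) and psme2 (0.84 ± 0.18, adjusted p = 0.00437) had positive differences. For psme2 the direction differed, with -0.40 in whole fins and 0.41 in fibroblasts. The difference of psme3 (-0.57) was not called in the main fit. That difference was called with DESeq2 (-0.64, adjusted p = 0.0433), with DESeq2 size factors (-0.64, adjusted p = 0.0427) and in the joint fit of replicated groups (-0.82, adjusted p = 0.00183).

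The LEN deletion was compared with wild type through single libraries, so no test could be made within a time and the intervals cover counting error only. With time as a block over the 4 libraries, a test added after the data were seen, none of the 52 members was called (0 with edgeR's quasi-likelihood test and 0 with DESeq2). In the edgeR test 0.219% of all genes were called higher in the LEN deletion and 0.185% lower. At an unadjusted p under 0.05 there were 7 members with edgeR and 4 with DESeq2, against 905 and 406 of all 11873 genes. The smallest adjusted p of a member in the edgeR test was that of psmb10 (log2 ratio 0.41 ± 0.10, adjusted p = 0.155), and over 4 other settings the smallest of any member ran from 0.055 to 0.425. That test assumes that the genotypes differ alike at both times. At 0 dpa the median log2 ratio of the 52 members, LEN deletion over wild type, was -0.14, against -0.02 over all genes, and at 2 dpa it was 0.08, against -0.00. At 0 dpa no member was past 1.5-fold higher and 2 were past 1.5-fold lower, where 7.68% of all genes were past that size higher and 4.76% lower. They were psmb7, with 647 counts in the LEN deletion and 927 in wild type (log2 ratio -0.65, 95% exact interval -0.79 to -0.50), and psmc3ip, with 38 and 56 counts in the same order (-0.69, interval -1.32 to -0.07). At 2 dpa no member was past 1.5-fold in either direction, where 3.77% of all genes were past it higher and 3.78% lower, and psmb7 had 4217 counts in the LEN deletion and 4574 in wild type (-0.08, interval -0.14 to -0.02).

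The 5 immune or tissue beta genes had positive ratios at both times, from 0.01 to 0.40 at 0 dpa and from 0.05 to 0.42 at 2 dpa. The intervals of psmb12 at 0 dpa (-0.08 to 0.10) and of psmb11b at 0 dpa (-0.24 to 0.55) and 2 dpa (-0.36 to 0.46) included 0. Positive ratios at both times were not particular to this class. Other such members, at 0 dpa and 2 dpa, were psme1 (0.33 and 0.25), psme2 (0.38 and 0.41) and psma6l (0.09 and 0.55). The share of all genes with positive ratios at both times was not determined. The 7 constitutive beta genes ranged from -0.65 to -0.07 at 0 dpa and from -0.08 to 0.12 at 2 dpa. For psmb10 the counts were 3747 in the LEN deletion and 2592 in wild type at 0 dpa (log2 ratio 0.40, interval 0.33 to 0.48) and 2388 in the LEN deletion and 1831 in wild type at 2 dpa (0.42, interval 0.33 to 0.51). The summed leukocyte markers, given above, were also higher in the LEN deletion libraries at both times. One library per group cannot separate genotype from the spread between pools.

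Genes that work with the proteasome were read from further lists. For these lists, here and in the paragraphs below, the shares of all genes called serve as the background. They were 32.5% higher and 33.0% lower in whole fins at 4 dpa and 31.2% higher and 31.1% lower in the 2 dpa libraries. In fibroblasts they were 27.8% higher and 26.2% lower, and in the fins labelled 1 dpa 42.0% higher and 39.9% lower. Of 16 genes for assembly and substrate recognition 9 were higher and 2 lower in whole fins at 4 dpa, 11 higher and 1 lower in the 2 dpa libraries, 8 higher and 5 lower in fibroblasts, and in the fins labelled 1 dpa 2 higher and 13 lower. The core maturation factor gene pomp held 91.4 and 89.7 CPM in whole fins at 4 dpa, against 43.5 and 44.4 CPM at 0 dpa (log2 fold change 0.94 ± 0.11, adjusted p = 6.88e-05), and 114 and 109.8 CPM in fibroblasts at 4 dpa, against 28.3 and 26.4 CPM at 0 dpa (2.13 ± 0.15, adjusted p = 4.86e-06). The ubiquitin receptor gene adrm1 rose by 0.67 ± 0.12 in whole fins and 1.46 ± 0.18 in fibroblasts. The regulatory particle gene listed as shfm1 rose by 1.2 ± 0.13 in whole fins and 1.48 ± 0.15 in fibroblasts. The autophagy receptor gene sqstm1 fell in whole fins, with 55.8 and 54.8 CPM at 4 dpa, against 234 and 245 CPM at 0 dpa (-2.22 ± 0.12, adjusted p = 6.9e-07).

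A further list held 9 tested genes that act on the control of proteasome genes. Of these 2 rose and 5 fell in whole fins at 4 dpa, 1 rose and 5 fell in the 2 dpa libraries and 1 rose and 6 fell in fibroblasts, while in the fins labelled 1 dpa 3 were higher and 4 lower. The genes that rose were ngly1 and ddi2 in whole fins at 4 dpa (0.33 ± 0.12 and 0.44 ± 0.13 on the log2 scale), ngly1 at 2 dpa (0.66 ± 0.11) and ddi2 in fibroblasts (0.59 ± 0.19). They encode a glycanase and a protease that, in mammals, process the factor described next, and were named after their values were seen. None of the other 7 genes, which encode transcription factors, was called higher in those 3 sets. The genes nfe2l1a and nfe2l1b encode the factor that, in mammals, raises proteasome genes when proteasome activity is short. The first held 5.48 and 5.63 CPM in whole fins at 4 dpa, against 17.6 and 13.4 CPM at 0 dpa (log2 fold change of nfe2l1a -1.58 ± 0.17, adjusted p = 3.94e-05), and 51.3 and 60.0 CPM in fibroblasts at 4 dpa, against 185 and 174 CPM at 0 dpa (-1.60 ± 0.15, adjusted p = 2.06e-05). For nfe2l1b the change was 0.13 ± 0.23 in whole fins (adjusted p = 0.638) and -0.82 ± 0.14 in fibroblasts (adjusted p = 0.00105). Transcript levels say nothing of the amount of active factor, which is set by processing of the protein.

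Among genes that deliver substrates, the list of 14 genes around the unfoldase p97 had 7 higher and 1 lower in whole fins at 4 dpa, 8 higher and 1 lower in the 2 dpa libraries, 8 higher and none lower in fibroblasts, and in the fins labelled 1 dpa 2 higher and 9 lower. The p97 gene vcp itself rose in whole fins (log2 fold change 1.29 ± 0.16, adjusted p = 8.14e-05). Of 5 ubiquitin supply genes 1 rose and 3 fell in whole fins at 4 dpa, 2 rose and 2 fell in the 2 dpa libraries, 3 rose and 2 fell in fibroblasts, and in the fins labelled 1 dpa 4 were higher and 1 lower. The ubiquitin-activating enzyme gene uba1 rose in whole fins (1.06 ± 0.14) and in fibroblasts (1.1 ± 0.16). The polyubiquitin genes ubb (-2.50 ± 0.27) and ubc (-1.41 ± 0.15) fell in fibroblasts, in the libraries where the heat shock list also fell. In whole fins at 4 dpa that list summed to 7938 to 8564 CPM, against 11111 to 13275 CPM at 0 dpa, with 11 of its 21 genes lower and 5 higher. There ubb fell (-0.37 ± 0.14, adjusted p = 0.0432) and ubc was not called (-0.34 ± 0.20, adjusted p = 0.164). A link between these genes and the list was not tested.

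Antigen presentation and interferon lists were read beside the immune beta genes. The shares of all genes called were 32.5% higher and 33.0% lower in whole fins at 4 dpa and 31.2% higher and 31.1% lower in the 2 dpa libraries. In fibroblasts they were 27.8% higher and 26.2% lower, and in the fins labelled 1 dpa 42.0% higher and 39.9% lower. Of 11 antigen presentation genes 2 rose and 7 fell in whole fins at 4 dpa, 2 rose and 9 fell in the 2 dpa libraries, 2 rose and 6 fell in fibroblasts, and in the fins labelled 1 dpa 9 were higher and 2 lower. The class I light chain gene b2ml fell in whole fins (log2 fold change -2.45 ± 0.20) and in fibroblasts (-1.73 ± 0.17) at 4 dpa. Of 18 interferon response genes 3 rose and 7 fell in whole fins at 4 dpa, 2 rose and 10 fell in the 2 dpa libraries, 3 rose and 10 fell in fibroblasts, and in the fins labelled 1 dpa 9 were higher and 4 lower. The interferon signal transducer gene stat1a fell in whole fins at 4 dpa (-1.22 ± 0.12) and in the 2 dpa libraries (-1.14 ± 0.10). Its paralog stat1b, named after its values were seen, rose in both (0.46 ± 0.14, adjusted p = 0.0162, and 0.67 ± 0.13, adjusted p = 0.00169). In fibroblasts at 4 dpa both stat1a (-1.25 ± 0.22) and stat1b (-1.35 ± 0.18) fell.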

How the data were processed

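RNA was measured in 18 libraries. The authors deposited raw read counts per gene symbol, 1 file per library, with 5 summary entries that were left out of all totals; reads in no annotated gene were 26.5% to 39.0% of all entries and ambiguous reads 0.246% to 0.645%. The submitters' processing notes name the build danRer10 and, with no roles, HTSeq 1.6.1, TopHat2 2.1.1, MACS2, SAMtools 1.5, Trim Galore 0.4.1 and 0.6.4, Picard 1.91 and Bowtie2 2.2.5; gene annotation and strand setting: not given in the sources used here. Libraries were made with a stranded mRNA kit, per the labels' protocols.

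Members were found by symbol, 52 of 53 of them being current symbols in the RefSeq gene table for zebrafish. No genome, transcript lengths or sequences of the files' build were used, so levels are not compared between genes. Members, classes and lists were chosen with earlier results of these data known. Genes passing edgeR's filterByExpr were tested with edgeR 4.0.16 (limma 3.58.1, R 4.3.3): TMM scaling, robust quasi-likelihood F test, two-sided, Benjamini-Hochberg adjustment over all genes tested, called under 0.05. The model was also run on simulated counts with a single dispersion and few changed genes. That setting is simpler than these data, so it cannot give the error rate here. Each comparison used its own libraries; the 2 dpa comparison had genotype as a block, its only error estimate. Errors of fold changes are standard errors derived from the fold change and F. CPM use TMM factors over all 18 libraries. Named members are the catalytic beta and activator genes, the 3 largest called increases and decreases per comparison above 5 CPM, class extremes, exceptions and paralogs; from each other list, up to 3 genes with the smallest p, plus nfe2l1a, nfe2l1b, pomp, adrm1 and hsp70.1. The other lists cover assembly and recognition, p97, ubiquitin supply, control of proteasome genes, antigen presentation, interferon response, leukocytes, epidermis, fibroblasts, heat shock and dissociation, and proliferation. Replicates differed by more than sampling noise (chi-square per degree of freedom 14.9 to 126), so none were merged. Alternatives were DESeq2 1.42.0, its size factors, library size alone, no filter, a joint fit of replicated groups, a replicate block and each library left out; exchanging the batch 2 groups and a test of genotype with time as a block were added after the data were seen.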

Additional observations from a re-analysis of the deposited data

Results flagged for a closer look

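The response of fibroblasts differed from that of whole fins (4 dpa over 0 dpa in each) for 23 members in a test of the difference itself, and the 7 of them that the rule for named members picks are given here; all 7 values are fibroblast minus whole-fin log2 fold changes, and the sets also differ in batch. The difference was 1.81 for psma5, 1.36 for psma1 and 1.35 for psmb6, alpha and catalytic beta genes that changed more in fibroblasts. The activator genes psme1 and psme2 differed by 1.1 and 0.84. Differences in the other direction were -1.18 for psmb7 and -0.94 for psmd11a. Uninjured fibroblast libraries held 154 and 231 CPM of psmb7 and 159 and 183 CPM of psmd11a. The uninjured whole fins of batch 1 held less, at 21.3 and 18.8 CPM of psmb7 and 47.5 and 40.0 CPM of psmd11a. Other members also stood higher in uninjured fibroblasts than in those batch 1 fins. Among them were psmd1 (156 and 160 CPM, against 81.4 and 92.9 CPM), psme3 (71.8 and 83.8 CPM, against 30.3 and 22.9 CPM) and psmd10 (21.9 and 30.9 CPM, against 9.95 and 8.68 CPM), whose differences were not called. The gene psmd3 (103 and 116 CPM, against 74.3 and 88.0 CPM) had the larger change in fibroblasts. These examples were named after their values were seen. The uninjured levels compare different batches, and their part in the differences was not tested. All 4 of the whole-fin and fibroblast groups have 2 libraries each. The sum of the heat shock and dissociation list was 34581 to 35695 CPM in fibroblasts at 4 dpa, against 143548 to 188421 CPM at 0 dpa, and its part in these differences was not tested.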

How the results depend on the processing

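Counts of standard subunits called higher in whole fins at 4 dpa (33), at 2 dpa (34) and in fibroblasts (34), and lower in the libraries labelled 1 dpa (34), stayed within 1.5-fold under every alternative run, apart from the exchange of the batch 2 groups, which by construction gave 34 higher and 0 lower standard subunits and 42 higher and 7 lower members. Small counts moved. In whole fins at 4 dpa members called lower were 0 with library size only, and standard subunits called lower were 0 with library size only and 0 in the joint fit. In fibroblasts the joint fit gave 6 members and 1 standard subunit lower, and for the difference of responses 7 members and 4 standard subunits lower. Without the genotype block no standard subunit (0) was called lower at 2 dpa, and with library size only 1 member was past 1.5-fold lower in the LEN deletion at 0 dpa. The cause of these moves was not tested.

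Leaving out 1 library at a time gave 35 to 39 members higher and 3 to 6 lower in whole fins at 4 dpa (standard subunits 31 to 34 and 0 to 1), 6 to 7 higher and 41 to 42 lower in batch 2 (standard subunits 34 lower throughout), 36 to 43 higher and 0 to 4 lower in fibroblasts (33 to 34 and 0 to 1), and 15 to 23 larger and 2 to 7 smaller for the difference of responses (12 to 18 and 2 to 5; alpha genes 7 to 9). A lone sample is then assumed to vary like the other group. It could not be fitted at 2 dpa, where no residual degrees of freedom remain.

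Library-size scaling moved the median log2 fold change of all genes to 0.44 in whole fins at 4 dpa, with 72.7% of calls higher (49.7% with TMM), to 0.32 in fibroblasts, with 67.7% higher (51.5% with TMM), to 0.16 in batch 2, with 55.5% higher (51.3% with TMM), and to -0.11 for the difference of responses, with 38.9% higher (52.0% with TMM). The standard subunits then had medians of 1.53, 1.94 and -1.73. For the difference the joint fit moved the median to -0.18, with 36.9% higher.

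Signs changed for values near 0. In whole fins at 4 dpa psmb9a was 0.42 (adjusted p = 0.0476) with library size only, 0.047 in the joint fit and -0.18 to 0.098 without single libraries, and with library size only psmb12 was 0.33, psme1 0.34 and psme2 0.056. In batch 2 psmb12 was 0.055 with library size only and -0.11 to 0.026 without single libraries. In fibroblasts library size only gave 0.057 for psmb8a and 0.066 for psmb9a, which was -0.50 to 0.027 without single libraries, and psmb12 was -0.084 in the joint fit and -0.22 to 0.26 without single libraries. For the difference psmb5 was -0.046 with DESeq2 and with its size factors, -0.15 with library size only, -0.22 in the joint fit and -0.18 to 0.074 without single libraries, psmb9a was -0.58 to 0.0097 without single libraries, and psmb12 was -0.056 in the joint fit and -0.22 to 0.27 without single libraries.

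Replicate numbers did not pair the samples: same-numbered deviations correlated at 0.05 (whole fins, batch 1), -0.07, -0.08 and 0.03 (batch 2) and 0.07 (fibroblasts). With the replicate block, counts of calls stayed within 1.5-fold, and of the named members psme2 in fibroblasts lost its call (adjusted p = 0.0527). For the difference of responses psmb8a gained a call with that block (0.60, adjusted p = 0.0449).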
